A study of Mus musculus with 6 samples.

Results

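The genes described here are the cyclins, the cyclin-dependent kinases (CDKs) and their inhibitors, and the factors that copy DNA, as measured in liver of Atp7b knockout and wild-type mice. They were chosen by a rule on gene symbols, with earlier results of these data known. Every probe set (a group of array probes for 1 transcript) with a single symbol of these families was taken, and Cdkn1a was left out. This gave 68 genes on 98 probe sets, of 7163 genes on 10776 probe sets with a single symbol in the table used here. Symbols were unchanged in RefSeq for all 68 genes. The study compared 3 liver RNA samples of mice lacking Atp7b (KO903, KO904 and KO905), the copper-exporting ATPase whose loss causes Wilson disease, with 3 of wild-type mice (WT4, WT5 and WT6), each on 1 Affymetrix array. Per the series title, the livers were at an early stage of copper accumulation. The labels give no strain, age, sex or treatment, and they do not say which part of Atp7b was disrupted.

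In the textbook cell cycle, D cyclins bind Cdk4 or Cdk6 and phosphorylate the retinoblastoma protein, which frees E2F transcription factors to switch on genes of DNA replication. The origin recognition complex and the Mcm helicase mark replication origins, and the sliding clamp, its loader and the DNA polymerases then copy the strands, while B cyclins with Cdk1 and later the anaphase-promoting complex with Cdc20 drive mitosis. Hepatocytes of an adult liver are mostly quiescent and re-enter the cycle after injury or partial hepatectomy. The genes were therefore sorted by stage: 48 genes fell into 9 stages, and 20 carried a name of these families but act elsewhere or were not placed.

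Values are MAS 5.0 signals on a linear scale. Of the 98 probe sets, 81 (58 genes) averaged 100 or more across the arrays and were tested with limma on log2(signal + 16). P-values were adjusted by the Benjamini-Hochberg method across the 10620 probe sets tested in the whole table, and a call means an adjusted p under 0.05. Standard errors (SE) are limma's, on that log2 scale, and a fold is 2 to the power of the log2 difference. The labels do not say whether the samples came from separate animals, and the p-values reflect only how far these samples spread, which may be technical. Median signals were 330.8 to 342.8 on all 6 arrays. The single Atp7b probe set, whose position relative to the disrupted part is not known here, had 240.5, 231.8 and 184.9 in KO and 259, 299.7 and 241 in WT. All KO values were lower, the highest KO value nearly met the lowest WT value, and there was no call (log2 -0.27 ± 0.16, SE; limma adjusted p = 0.407), so it is a weak check of the genotype. Of 7 hepatocyte marker genes none was called by limma (1 probe set lower at an unadjusted p under 0.05), and their summed signals were 108447 to 123859 in KO and 115081 to 138404 in WT. Tat (log2 -0.42, limma adjusted p = 0.0803) and the brightest Hnf4a probe set (log2 -0.21, adjusted p = 0.282) were lower without overlap. All other hepatocyte probe sets overlapped. Because the samples are whole liver, fewer cells of a type and less RNA per cell cannot be told apart.

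In the Atp7b knockout livers 5 of these genes rose, from 5 of the 9 stages: E2f6, a transcriptional repressor of the E2F family, 1.92-fold, Cdc20, the activator of the anaphase-promoting complex, 1.87-fold on 1 of its probe sets, Rfc5, a subunit of the clamp loader, 1.58-fold, Ccnd3, which encodes cyclin D3, 1.5-fold, and Cdkn2c, which encodes the Cdk4 and Cdk6 inhibitor p18, 1.46-fold. Limma called none lower (9 probe sets at an unadjusted p under 0.05). These 5 calls were 6.17% of the 81 tested probe sets. Of all tested probe sets, 2.05% were called higher, 2.09% lower and 4.14% in either direction. Among the 5, the Cdc20 probe set passed the signal filter only through its KO values (mean 195.4, against 98.6 in WT). The count and share of 5 therefore lean on the filter for that gene, whose brighter probe set was not called (limma adjusted p = 0.283). On the brightest tested probe set of each gene, 4 of 58 genes were called higher and 0 lower, where 2.14% and 1.8% of all tested genes were. Without any given library the count was 1 to 3 (1 without KO903, KO904, KO905, WT5 or WT6, and 3 without WT4), and E2f6 was the call that remained in each case. Of the replication genes, 1 of 13 tested probe sets of the fork and 0 of 11 of origin licensing were called, together near the background share. The median log2 difference over the 58 genes was 0.06, against 0.03 over all 6604 tested genes, and 33 of the 58 lay above 0, where 56.4% of all tested genes did.

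The stretch of 200 bases before the RefSeq start site is given for the genes that rose. It is also given for those genes next by p in their stage that held an E2F or CHR motif there. Because the uncalled genes were picked by motif, their stretches cannot be compared with those of the genes that rose. E2F motifs are bound by E2F factors in genes of G1 and S phase; the CHR element, often near CCAAT boxes bound by NF-Y, is typical of genes of G2 and mitosis. RefSeq had promoters for 60 of the 68 genes. The sequences are from build GRCm38.p6, run 5′ to 3′ on the gene's strand and end just before the start site: E2f6 at chr12:16810765-16810964 (plus strand), Rfc5 at chr5:117389024-117389223 (minus strand), Cdc20 at chr4:118437344-118437543 (minus strand), and Ccnd3 and Cdkn2c with 2 start sites each, at chr17:47504851-47505050 (plus strand), chr17:47593267-47593466 (plus strand), chr4:109665373-109665572 (minus strand) and chr4:109666757-109666956 (minus strand). The genes not called are Cdc25a at chr9:109875379-109875578 (plus strand), Cdk2 at chr10:128705052-128705251 (minus strand), Orc3 at chr4:34614943-34615142 (minus strand) and Top2a at chr11:99024190-99024389 (minus strand). Capitals mark the motifs, on either strand: TTTGGCGC, TTTCGCGC, TTTGCCGC or TTTCCCGC (E2F), TTTGAA (CHR) and CCAAT. No marked motif overlaps another in these stretches.
E2f6: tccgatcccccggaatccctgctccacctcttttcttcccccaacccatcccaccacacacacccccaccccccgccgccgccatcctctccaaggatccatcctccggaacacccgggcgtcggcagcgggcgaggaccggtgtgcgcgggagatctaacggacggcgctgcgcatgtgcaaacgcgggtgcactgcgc
Rfc5: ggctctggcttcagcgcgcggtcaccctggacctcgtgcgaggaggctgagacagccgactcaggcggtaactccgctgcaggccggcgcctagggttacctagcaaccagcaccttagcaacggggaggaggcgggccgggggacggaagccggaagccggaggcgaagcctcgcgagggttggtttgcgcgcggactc
Cdc20: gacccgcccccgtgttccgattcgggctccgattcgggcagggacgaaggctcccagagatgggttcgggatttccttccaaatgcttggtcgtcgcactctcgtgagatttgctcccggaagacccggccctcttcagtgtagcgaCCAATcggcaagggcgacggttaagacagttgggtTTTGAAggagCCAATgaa
Ccnd3, first start site: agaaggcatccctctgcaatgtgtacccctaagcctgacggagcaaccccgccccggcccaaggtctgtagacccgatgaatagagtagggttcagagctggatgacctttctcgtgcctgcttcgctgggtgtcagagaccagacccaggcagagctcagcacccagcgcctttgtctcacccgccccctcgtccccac
Ccnd3, other start site: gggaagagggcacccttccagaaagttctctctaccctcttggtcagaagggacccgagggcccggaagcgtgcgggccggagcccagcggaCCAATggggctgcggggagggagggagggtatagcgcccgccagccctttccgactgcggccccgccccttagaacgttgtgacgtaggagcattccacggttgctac
Cdkn2c, first listed start site: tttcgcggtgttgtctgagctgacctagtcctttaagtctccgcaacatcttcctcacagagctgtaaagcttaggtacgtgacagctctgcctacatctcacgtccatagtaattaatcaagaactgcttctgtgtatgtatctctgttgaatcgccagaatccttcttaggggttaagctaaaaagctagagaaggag
Cdkn2c, other start site: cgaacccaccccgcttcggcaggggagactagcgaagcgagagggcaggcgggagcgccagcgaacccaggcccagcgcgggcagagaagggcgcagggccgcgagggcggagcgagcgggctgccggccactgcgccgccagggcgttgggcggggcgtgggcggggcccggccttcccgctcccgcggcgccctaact
Cdc25a: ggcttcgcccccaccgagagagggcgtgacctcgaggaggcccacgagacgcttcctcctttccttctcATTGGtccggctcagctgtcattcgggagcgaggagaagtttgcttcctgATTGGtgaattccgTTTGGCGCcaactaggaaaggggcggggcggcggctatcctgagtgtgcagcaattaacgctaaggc
Cdk2: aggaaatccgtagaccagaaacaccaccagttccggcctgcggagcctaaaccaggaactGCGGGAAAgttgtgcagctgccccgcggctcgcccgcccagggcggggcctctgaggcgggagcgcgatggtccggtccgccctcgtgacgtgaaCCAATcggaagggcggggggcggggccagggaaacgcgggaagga
Orc3: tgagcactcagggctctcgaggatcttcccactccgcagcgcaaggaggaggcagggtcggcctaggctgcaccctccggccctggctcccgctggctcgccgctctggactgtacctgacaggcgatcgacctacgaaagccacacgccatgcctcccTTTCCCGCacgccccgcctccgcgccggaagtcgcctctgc
Top2a: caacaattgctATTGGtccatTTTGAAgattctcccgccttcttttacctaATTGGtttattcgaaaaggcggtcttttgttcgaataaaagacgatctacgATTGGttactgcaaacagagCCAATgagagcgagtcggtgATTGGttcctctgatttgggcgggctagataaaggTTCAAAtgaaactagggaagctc

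Cdc20 carried a CHR motif that begins 18 bases before the start site, flanked by CCAAT boxes, and Top2a, which encodes a topoisomerase of mitosis, carried a CHR motif 23 bases before the start site with 5 CCAAT boxes upstream of it in the printed stretch. None of the 7 promoters of the called genes held an E2F motif in the full window of 250 bases before to 50 after the start site. Over that window an E2F motif was present in 13 of 48 promoters of the stage genes (27.1%) and in 2.26% of all 32851 promoters of the table. With only TTTGGCGC and TTTCGCGC the shares were 14.6% and 0.813%. The CHR letters are short and were in 4.17% of stage promoters and in 17.9% of all, and CCAAT was in 56.2% and 37.4%.

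The 12 genes with an E2F motif were Cdc25a, Cdk2, Mcm3, Mcm5, Mcm7, Mcmbp, Orc1, Orc3, Pold1, Pole2, Pole4 and Rfc3. Of these, 7 were tested and none was called by limma, where 2.14% of all tested genes were called higher and 1.8% lower. At such shares, 7 genes are too few for the lack of a call to say anything about them. Their log2 differences ran from -0.65 (Cdk2) to 0.46 (Orc3) with a median of 0.00. A match of letters is a description and says nothing of binding in these livers.

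The groups did not overlap in 11 tested probe sets with higher KO values and in 8 with lower KO values, together 23.5% of the 81. Over all tested probe sets the share was 23.6%, with 13.2% higher and 10.4% lower. The 81 together thus separated the groups about as often as other probe sets. In the 9 stages the share was 27.8% of 54 probe sets (9 higher and 6 lower). For the genes outside the stages it was 14.8% of 27 (2 higher and 2 lower). Among all 81, those apart and higher were the 5 called probe sets and probe sets of Rrm1, Pold4, Cdc42, Top2a, Orc3 and Cdk5rap1. Those apart and lower were probe sets of Cdc37l1, Cdk4, Rpa1 (both of its probe sets), Cdk2, Cdc42ep4, Mcm10 and E2f4. At an unadjusted p under 0.05 there were 11 higher and 9 lower, with 9.69% and 8.2% of all tested probe sets as background.

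**Figure D1:**
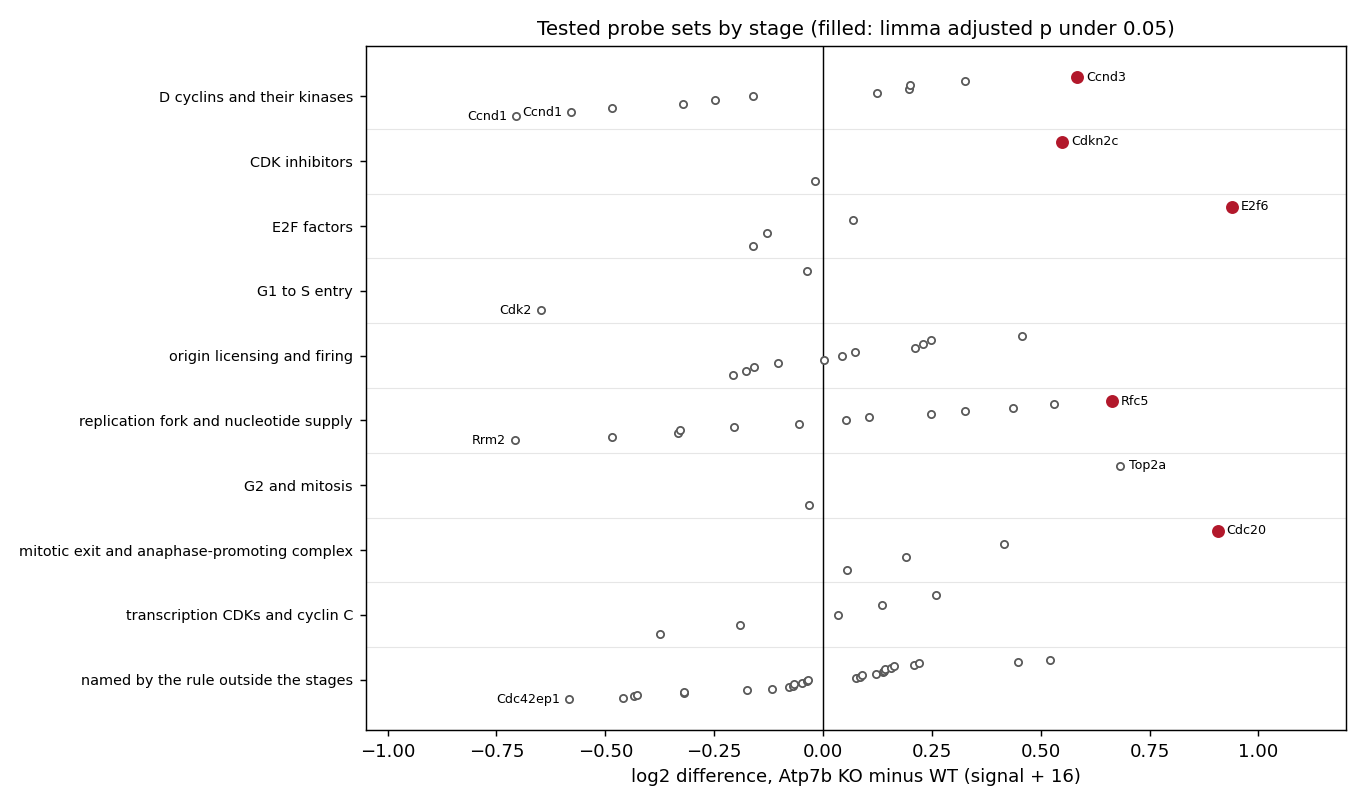
Log2 differences (Atp7b KO minus WT, of signal + 16; horizontal axis) of the 81 tested probe sets, 1 point each, by cell cycle stage (rows). Filled points are the 5 called by limma, all above 0; Ccnd1, Rrm2 and Cdk2 lie farthest below 0 (log2 -0.70, -0.71 and -0.65) and are open, since they were not called.

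Among the D cyclins and their kinases, which act in G1, limma called Ccnd3 and none of the other genes. Ccnd3 had signals of 516.2, 489.9 and 468.7 in KO903, KO904 and KO905, against 344.7, 276.1 and 351.9 in WT4, WT5 and WT6. The lowest KO value lay well above the highest WT value, and the log2 difference was 0.58 ± 0.14 (SE; limma adjusted p = 0.0396). Cyclin D3 binds Cdk4 and Cdk6, as the other D cyclins do.

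Ccnd1, the D cyclin that rises when hepatocytes re-enter the cycle, was uneven in wild type. On its brightest probe set the signals were 704.9, 496.5 and 699.6 in KO and 1289.3, 610.8 and 1383.6 in WT4, WT5 and WT6. WT5 lay within the KO range, the groups overlapped, and the log2 difference of -0.70 ± 0.27 (SE) was not called (limma adjusted p = 0.188). The other 2 probe sets showed the same uneven WT samples, with 300.2 and 575.6 in WT5, against 707.2 and 984.8 in WT4 and 717.8 and 1060.9 in WT6, and log2 differences of -0.58 and -0.32. Without WT5, the log2 difference was -1.07 on the brightest probe set (limma adjusted p = 0.00621) and -0.98 on another (adjusted p = 0.0192), while the remaining one was not called (-0.59, adjusted p = 0.134). Ccnd1 thus changed from no call to 2 calls with the removal of 1 library. With any other sample left out, the brightest probe set was not called (log2 -0.79 to -0.49, limma adjusted p 0.255 to 0.443). Without WT4, WT6 or KO904 its difference was smaller (log2 -0.55, -0.49 and -0.54). Its probe sets ranked 1, 3 and 5 among the 81 by spread within groups (SD 0.44 to 0.55 on the log2 scale, where the median of the 81 was 0.21 and that of all tested probe sets 0.18).

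Ccnd2 had log2 differences of 0.12, 0.20 and 0.33 on its 3 tested probe sets, none of them called. The kinase genes gave no call either. The 3 probe sets of Cdk4 disagreed in sign, with log2 differences of 0.20, -0.16 and -0.49, and the last of these, which Affymetrix marks (suffix x) as sharing probes with other sequences, had KO values of 168.9 to 202.4 below WT values of 242.4 to 274.1 (limma adjusted p = 0.0916). Cdk6, the other D-cyclin kinase, was near the signal minimum, at 88.7 to 103.1 in KO and 96.5 to 149 in WT (log2 -0.25 ± 0.19, SE; limma adjusted p = 0.551).

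The CDK inhibitors were represented by a gene of each family. Cdkn2c (p18, of the INK4 family that blocks Cdk4 and Cdk6) had signals of 628, 670.4 and 546.6 in KO and 427.8, 377 and 438.8 in WT. All KO values were above all WT values (log2 0.55 ± 0.13, SE; limma adjusted p = 0.043). Cdkn1b (p27, of the family that blocks cyclin E with Cdk2) had 108.1, 131.9 and 116.6 in KO and 92.6, 97 and 190.5 in WT. Its groups overlapped and WT6 stood alone at the top (log2 -0.02 ± 0.24, SE; limma adjusted p = 0.981).

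The E2F factors tested were E2f4, E2f5 and E2f6, of which E2f4 and E2f5 repress with retinoblastoma-related proteins in quiescent cells and E2f6 represses without them, through Polycomb-type complexes. E2f6 had signals of 309, 342.8 and 365.7 in KO, against 191.6, 143.6 and 174.7 in WT. Every KO value exceeded the highest WT value by more than 100 units, and the log2 difference of 0.94 ± 0.15 (SE; limma adjusted p = 0.00734) was called under each of the alternatives run, including the removal of any library (adjusted p 0.0154 to 0.0383). E2f4 had 216.9, 222.5 and 214 in KO, just below 231.7, 277.8 and 229.6 in WT (log2 -0.16 ± 0.14, SE; limma adjusted p = 0.613). E2f5 had log2 differences of 0.07 and -0.13 on its probe sets and was not called. The activators E2f1, E2f2 and E2f3 were not analysed here.

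At the entry into S phase no gene was called. Cdk2, the kinase of cyclins E and A, had 80.3, 158.2 and 121.3 in KO, and 197.7, 188.7 and 186.4 in WT. The WT samples were nearly equal and the KO samples spread below them, so the groups did not overlap, yet the log2 difference of -0.65 ± 0.21 (SE) missed the threshold (limma adjusted p = 0.122). Cdc25a, the phosphatase that activates Cdk2, was 132.8 to 190.3 in KO and 134.5 to 186.4 in WT (log2 -0.04 ± 0.18, SE; limma adjusted p = 0.946). Ccne2, which encodes cyclin E2, was below the signal minimum.

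**Figure D2:**
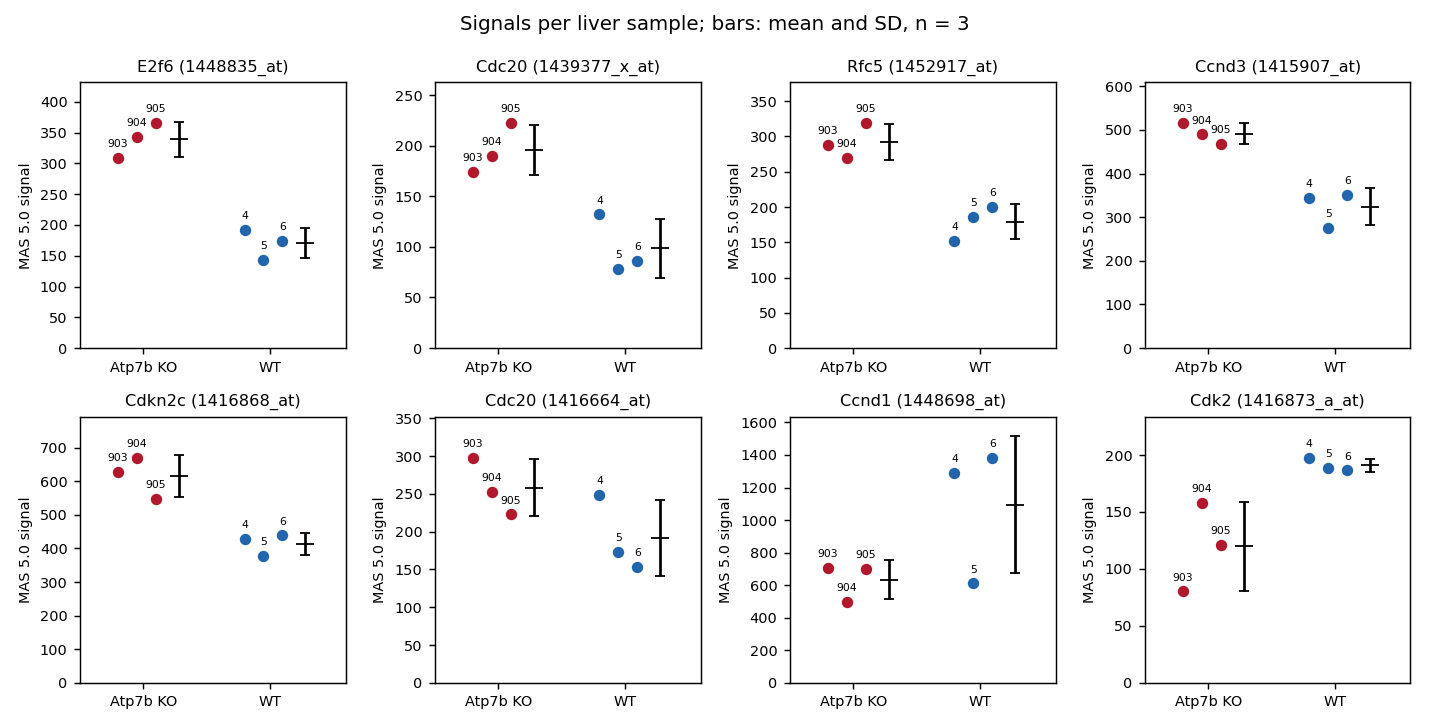
MAS 5.0 signals (vertical axis, linear and starting at 0) in each liver sample, Atp7b KO in red on the left and WT in blue on the right, with sample numbers beside the points and mean and SD (n = 3) as bars. The 5 called probe sets come first; the other Cdc20 probe set, Ccnd1 and Cdk2 follow, and WT5 falls among the KO values of Ccnd1.

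Origin licensing and firing, with 11 tested probe sets of 7 genes, gave no call in limma (1 higher at an unadjusted p under 0.05, none lower), and the median log2 difference of the stage was 0.07. Orc3, a subunit of the origin recognition complex, had 427, 352.4 and 303.4 in KO and 256, 225.9 and 290.3 in WT, apart but close (log2 0.46 ± 0.16, SE; limma adjusted p = 0.156). The other subunits Orc2, Orc4 and Orc5 had log2 differences between -0.18 and 0.21. Mcm7, of the replicative helicase, had 366.4, 445.1 and 456 in KO and 374, 379 and 306.2 in WT on its brightest probe set (log2 0.25), and its 3 probe sets ran from -0.10 to 0.25. Mcm10, which helps to activate the helicase at origins, had 1024, 1053.4 and 1022.2 in KO, each below the WT values of 1167.4, 1175.5 and 1243.9. That difference was small (log2 -0.21 ± 0.11, SE; limma adjusted p = 0.336), and the second Mcm10 probe set overlapped (log2 0.04). Mcmbp, a binding partner of the Mcm proteins, was level (log2 0.00 ± 0.14, SE).

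At the replication fork Rfc5 was the called gene among 11 tested. Its signals were 288.4, 269.5 and 319.3 in KO and 151.8, 185.5 and 200.6 in WT, without overlap (log2 0.66 ± 0.15, SE; limma adjusted p = 0.0365). Rfc5 is a small subunit of replication factor C, which opens the Pcna ring and sets it on DNA. The large subunit gene Rfc1 was level (log2 -0.05 ± 0.16, SE). Pcna itself, the sliding clamp and a common marker of S phase, had 746.5, 610.3 and 1072.8 in KO and 807.1, 697.3 and 777.8 in WT. KO905 was high and KO904 low, so the KO samples enclosed the WT samples (log2 0.05 ± 0.18, SE; limma adjusted p = 0.918).

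None of the polymerase and single-strand binding genes was called by limma. Pold4, the smallest subunit of DNA polymerase delta, had 367.6, 345 and 356.8 in KO, against 249.3, 273.9 and 254.7 in WT, a tight separation that missed the threshold (log2 0.44 ± 0.13, SE; limma adjusted p = 0.0866). The polymerase epsilon subunit genes Pole3 and Pole4 had log2 differences of 0.10 and -0.33, and Pold1 of 0.25. Rpa1, the large subunit of the single-strand binding protein, had 526.3, 506.7 and 724 in KO, below 797.9, 757.6 and 896.8 in WT (log2 -0.48 ± 0.15, SE; limma adjusted p = 0.111). Its second probe set also lay lower without overlap (log2 -0.33, adjusted p = 0.28), and Rpa3 had a log2 difference of -0.20.

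Neither subunit gene of ribonucleotide reductase, which makes deoxynucleotides, was called. Rrm1, the large subunit, had 199.6, 200.3 and 190.5 in KO and 140, 122.9 and 131.2 in WT on its dimmer probe set (log2 0.53 ± 0.15, SE; limma adjusted p = 0.0727), and overlapping values on the brighter one (log2 0.33, adjusted p = 0.382). Without an intensity trend in the variance model, the dimmer probe set was called (limma adjusted p = 0.0463). Rrm2, the small subunit that is limited to S phase in dividing cells, had 74.3, 117.9 and 163.6 in KO and 218.5, 240.8 and 140.7 in WT. KO905 lay above WT6, so the groups overlapped (log2 -0.71 ± 0.26, SE; limma adjusted p = 0.18), and its probe set is one that Affymetrix marks as sharing probes with other sequences.

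In G2 and mitosis few genes could be read: Ccna2, Ccnb1, Ccnb2, Cdk1 and Mki67 were not analysed here. Top2a, the topoisomerase that untangles sister chromatids, had 110, 136.5 and 155.1 in KO and 91.8, 53.9 and 89.6 in WT. Its WT mean of 78.4 was under the signal minimum, which it passed through its KO mean of 133.9. All KO values were higher, with WT5 the lowest, and the difference was not called (log2 0.68 ± 0.22, SE; limma adjusted p = 0.116). Cdc25b, a phosphatase that activates Cdk1, was level (log2 -0.03 ± 0.23, SE).

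For mitotic exit, Cdc20 had 174, 189.7 and 222.5 in KO and 132, 77.9 and 85.9 in WT on the called probe set, which carries the suffix of shared probes. The KO values were all higher (log2 0.91 ± 0.20, SE; limma adjusted p = 0.0329). The WT mean of this probe set was 98.6, under the signal minimum, and its KO mean was 195.4. It thus passed the signal filter through its KO values. The other and brighter Cdc20 probe set had 298, 253.1 and 222.9 in KO and 249.2, 172.9 and 153.6 in WT. There WT4 lay among the KO samples (log2 0.42 ± 0.19, SE; limma adjusted p = 0.283), so both probe sets pointed the same way and 1 was called. The anaphase-promoting complex subunits Cdc16 and Cdc26, which Cdc20 activates, were not called (log2 0.06 ± 0.12 and 0.19 ± 0.14, SE).

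A further stage held cyclin C and the CDKs known for their work on transcription and RNA processing, of which Cdk7 also activates the CDKs of the cycle. None of the 5 tested probe sets of Cdk7, Cdk8, Cdk9 and Cdk11b was called by limma, and none passed an unadjusted p of 0.05. Cdk9, the elongation kinase, had 500.4, 481.1 and 406.8 in KO and 349.4, 445.8 and 358.5 in WT (log2 0.26 ± 0.14, SE; limma adjusted p = 0.385), and Cdk11b had a log2 difference of -0.19 ± 0.13 (SE; adjusted p = 0.51).

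The 20 genes outside the stages, among them Cdc42 and genes of its effectors, the Hsp90 co-chaperone gene Cdc37 and the ubiquitin conjugase gene Cdc34, gave no call in 27 tested probe sets (2 higher and 4 lower at an unadjusted p under 0.05), with a median log2 difference of -0.03. Cdc42 on its brightest probe set had 2604.6, 2396.7 and 2393.7 in KO and 2254.8, 1573.7 and 1650.7 in WT (log2 0.45, limma adjusted p = 0.105), while its other 2 probe sets were at 0.14 and 0.08. Without WT4 that probe set was called (log2 0.61, adjusted p = 0.0269). Cdc37l1, related to Cdc37, had 650.1, 641.7 and 718.9 in KO, below 887.1, 826.4 and 1013 in WT (log2 -0.43, adjusted p = 0.0828).

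**Figure D3:**
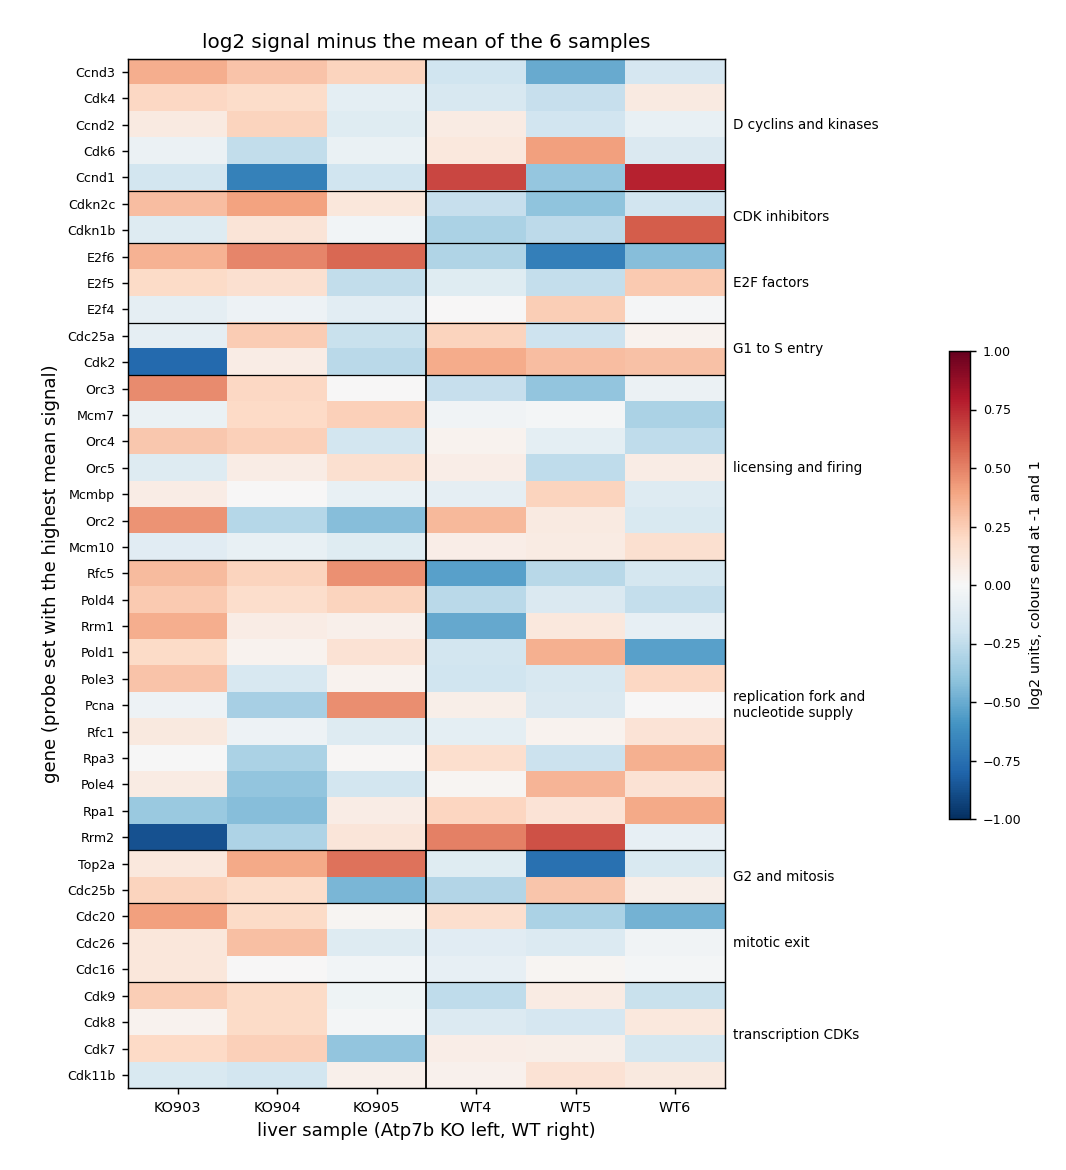
Log2 signal of the 39 tested genes of the 9 stages (rows, grouped by stage) in each sample (columns, Atp7b KO left of the line, WT right), as the difference from the mean of the 6 samples; red is higher and blue lower, in log2 units. E2f6, Ccnd3, Cdkn2c and Rfc5 are red in all 3 KO samples and blue in all 3 WT samples, while Ccnd1 is blue in WT5 as in the KO samples.

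Of the 17 genes with several tested probe sets, 10 had the same sign on all of them, and 7 (Cdc73, Cdk4, Cdk7, E2f5, Mcm10, Mcm7 and Orc4) had both signs. E2f6, Rfc5, Ccnd3 and Cdkn2c were each read from 1 probe set, so no second probe set bears on those calls.

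Partners of these genes outside the chosen families were taken from a list, drawn up with earlier results known, of 55 genes of replication and cell cycle control, of which 22 were tested on 30 probe sets. Limma called 7 probe sets of 4 genes higher and none lower, with 2.05% and 2.09% of all tested probe sets as background (3 lower at an unadjusted p under 0.05). On the brightest probe set of each gene, 3 genes were called higher, where 2.14% of all tested genes were. Cks1b, a small subunit that docks CDKs to phosphorylated targets, had 951.2, 896.2 and 877.5 in KO and 566.4, 329.6 and 284.6 in WT on its brighter probe set (log2 1.23 ± 0.21, SE; limma adjusted p = 0.0087), and its other probe set rose too (log2 1.08, adjusted p = 0.00487). Cks2, its close relative, had 1154.5, 1013.6 and 1015.6 in KO and 713, 734.9 and 764 in WT on its slightly dimmer probe set (log2 0.51 ± 0.11, SE; limma adjusted p = 0.0324). The brighter Cks2 probe set was just outside the threshold (log2 0.57, limma adjusted p = 0.0571). The cyclin G genes Ccng1 and Ccng2 also rose, Ccng1 on all 3 probe sets (log2 1.07 to 1.28) and Ccng2 on 1 of 2 (log2 0.86, adjusted p = 0.0362). The other 18 tested genes were not called, including the licensing factor gene Cdt1 and the mitotic kinase gene Aurka. Wee1 (log2 -0.76, limma adjusted p = 0.0653) and Tfdp1 (log2 -0.56, adjusted p = 0.103) were lower without overlap and not called. Of the 30 tested probe sets, 10 were higher and 2 lower without overlap, where 13.2% and 10.4% of all tested probe sets were.

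Markers of other liver cells were set beside these results. The summed signal of 8 of 11 listed Kupffer cell and macrophage genes was 5634 to 7592 in KO and 4172 to 5756 in WT, with no probe set called by limma and 3 higher at an unadjusted p under 0.05. The 4 erythroid genes measured among 14 listed summed to 1293 to 1562 in KO and 1019 to 1390 in WT. Of these, Alas2, of heme synthesis, rose (894, 834.9 and 714 in KO and 377.2, 417.7 and 398.8 in WT; limma adjusted p = 0.00183), while the adult beta-globin gene Hbb-b2 had 148.7 to 214 in KO and 203.9 to 247.5 in WT. Tfrc, the transferrin receptor gene, had 237.4, 289.3 and 249.7 in KO and 522.8, 592.2 and 294.4 in WT on its brighter probe set, lower without overlap but not called (log2 -0.77, limma adjusted p = 0.0839), and a log2 difference of -0.33 on the other. Klf1, an erythroid transcription factor gene, overlapped (log2 0.29, limma adjusted p = 0.526). Of the 11 genes on the lymphocyte list, 2 were measured, Ms4a1 and the general leukocyte gene Ptprc. They summed to 311.5 to 331.6 in KO and 233 to 295.2 in WT, higher without overlap. Mean signals were 173 in KO and 145.8 in WT for Ptprc, and 148.5 and 109.9 for Ms4a1, with no call. The granulocyte precursor gene Ngp ranged from 200.4 to 310.3 in KO and from 209 to 253.9 in WT, also with no call. The summed signals of 5 endothelial genes (1493 to 1891 in KO, 1324 to 1647 in WT) and of 6 stellate cell genes (2549 to 2785 in KO, 2287 to 3555 in WT) overlapped, without a call. At an unadjusted limma p under 0.05, the endothelial gene Stab2 was higher (log2 0.36) and Lyve1 lower (log2 -0.56). Only 3 of the 6 stellate cell genes reached the signal minimum on their brightest probe set. Cd24a, the cholangiocyte and progenitor gene measured, was below the signal minimum (75.8 to 99.3 in KO, 50 to 76.2 in WT). The part of these cells in the 5 calls was not tested.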

How the data were processed

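Total liver RNA of 3 Atp7b knockout and 3 wild-type samples was hybridised to 1 Affymetrix array each. Per the labels, the authors computed each intensity with MAS 5.0 and scaled every array to a target average of 350, without taking logs. Over the rows of the table used here, the mean of each array without its extreme values was 719 to 729, above that target. The sources used here do not give how the 11811 probe sets of the table were chosen. Groups were taken from the sample titles, and no 2 arrays shared more than 0.0847% of values. The number of arrays limits the precision.

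The 33 control probe sets and 1158 with a mean signal under 100 were left out, which left 10620. Knockout was compared with wild type on log2(signal + 16), which understates changes of low signals, with limma (lmFit, eBayes with an intensity trend), two-sided. No exact permutation test of 3 against 3 can go below 0.1. Gene symbols came from the annotation of the array platform, checked through Entrez identifiers in RefSeq (GRCm38.p6).

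The genes, stages, partner and marker lists were chosen with earlier results of these data known. Described in full are genes with a called probe set and the next 2 genes by p in each stage on their brightest probe set; other members were named after their values were seen. The TTTGCCGC and TTTCCCGC motifs were added afterwards. Alternatives were quantile normalization, median centring, a pseudocount of 1 or 64, no signal filter or a minimum of 200, robust eBayes or eBayes without trend, weights per array, the removal of each sample in turn, a call threshold of 0.10, and the mean over probe sets. Versions were R 4.3.3, limma 3.58.1, Python 3.11.15 and matplotlib 3.10.9.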

Additional observations from a re-analysis of the deposited data

How the results depend on the processing

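The number of probe sets of these genes called higher was 5, and 4 or 5 under every normalization, pseudocount, signal filter and variance model run (7 at a threshold of 0.10). At a threshold of 0.10, 3.84% of all tested probe sets were called higher. With 1 sample left out the number was 1 to 3, where 0.772% to 2.24% of all tested probe sets were called higher. The number called lower was 0, was 0 to 2 with 1 sample left out (2 without WT5, both of Ccnd1) and was 2 at a threshold of 0.10. Of all tested probe sets, 2.18% were called lower without WT5 and 3.56% at a threshold of 0.10. E2f6 was called in every setting. The calls of Ccnd3, Cdkn2c and Rfc5 ended with any sample left out (adjusted p up to 0.138, 0.154 and 0.127), and that of Cdc20 with any but WT4 (up to 0.113). Narrow losses were those of Ccnd3 and Cdkn2c without the trend (adjusted p = 0.0514 and 0.06; Rrm1 was gained there, at 0.0463), of Cdkn2c with centring (0.0507) and of Rfc5 after quantile normalization (0.0506). At a minimum of 200 the Cdc20 probe set was not tested. The cause of the other losses was not tested, beyond the fewer samples. The stage medians stayed within the spread of the samples in all but 4 cases: D cyclins with the mean over probe sets (-0.15, against 0.12), CDK inhibitors at a minimum of 200, which leaves 1 gene (0.55, against 0.27), the replication fork (0.05, and -0.013 to 0.21 with 1 sample left out) and transcription CDKs (0.09, and -0.00081 to 0.21). Signs turned for uncalled genes near 0: Cdkn1b (0.010 with array weights, -0.18 to 0.28 with 1 sample left out), E2f5 (-0.034 to 0.21), Cdc25a (-0.17 to 0.065) and Cdc25b (0.028 with array weights, -0.18 to 0.19). No paired analysis was possible because the groups share no sample number.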

Other observations

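The 17 probe sets of these genes with a mean signal under 100 belonged to 15 genes, and 10 of those genes had no other tested probe set: Ccnc, Ccne2, Cdc23, Cdc42se2, Mcm3, Mcm4, Mcm5, Orc1, Pole2 and Rfc3. With no filter on signal, limma called none of the 17 (2 at an unadjusted p under 0.05). Mcm4, a helicase subunit, had signals of 32.5, 29.2 and 33.3 in KO and 57.1, 37.2 and 76.1 in WT, lower without overlap (log2 -0.58 ± 0.24, SE; limma adjusted p = 0.237). The Mcm4 probe set carries the suffix of shared probes. Rfc3, another subunit of the clamp loader beside Rfc5, had 83.2, 80 and 97.8 in KO and 59.3, 63.8 and 69.7 in WT, higher without overlap (log2 0.36 ± 0.18, SE; limma adjusted p = 0.341). Mcm3 and Mcm5, of the same helicase as Mcm4, overlapped between the groups (log2 -0.26 and -0.04). These signals are low enough that MAS 5.0 values are noisy, and they were chosen for mention after the values were seen.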
